A study of Mus musculus with 10 samples.

Results

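Mitosis and G2/M genes are the genes whose products carry a cell from the end of DNA replication through chromosome segregation to the separation of the daughter cells. A set of 45 such genes was followed in bulk RNA-sequencing of mouse lungs collected at postnatal day 14 (P14). The genes were found by symbol, from a list of names, among 54532 genes in the deposited expression table, and all 45 were among the 15388 genes with a mean level of at least 0.5 FPKM (fragments per kilobase of transcript, scaled to the fragments of the library) that were tested. The IncPBF group (increased pulmonary blood flow) consisted of 5 lungs from wild-type C57/BL6 pups in which the abdominal aorta had been punctured through into the inferior vena cava at P7 to create a fistula. The sham group consisted of 5 lungs from wild-type pups of the same strain and ages that underwent the same laparotomy at P7 without the puncture. The fistula lies in the abdomen, outside the lung itself. The pups were described as male or female, and neither sex nor litter is given per lung. The p-values set the difference between the groups against the spread of these lungs within the groups. They do not by themselves separate surgery from sex or litter.

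Entry into mitosis is driven by the kinase CDK1 with its cyclin partners, while the Polo and Aurora kinases build the spindle, and kinetochores attach the chromosomes to it. The spindle assembly checkpoint holds the anaphase-promoting complex or cyclosome (APC/C) in check until every chromosome is attached, and the chromosomal passenger complex and the centralspindlin proteins then guide anaphase and cytokinesis. Most of these genes are transcribed mainly in cycling cells, in late S phase, G2 and mitosis, under the MuvB complex with B-MYB and FOXM1, and the postnatal lung in the alveolar stage still contains dividing mesenchymal, endothelial and epithelial cells.

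Promoters of such genes are known for the cell cycle genes homology region (CHR), whose core letters are TTTGAA and which MuvB contacts, and for CCAAT boxes bound by the NF-Y factor. Promoter windows from RefSeq (GRCm38.p6), from 250 bases before to 50 bases after the RefSeq start of the gene, were matched by symbol for 36 of the 45 genes, with 38 windows in all. The RefSeq start lay within 100 bases of the gene's start in the expression table in 30 of the 36 genes. In Cenpa, Mad2l1, Kif4, Cdca3, Cdca8 and Kif2c it lay 109 to 3867 bases away. No window was matched for Aurkb, Ccna2, Cdc25c, Dlgap5, Foxm1, Incenp, Kif20a, Pbk and Tpx2. The windows of Cdk1 (chr10:69352863-69353162, minus strand), Ccnb2 (chr9:70421505-70421804, minus strand), Ube2c (chr2:164769679-164769978, plus strand) and Cdca3 (chr6:124829926-124830225, plus strand) are shown. Among the genes whose windows hold both kinds of letters, these had the largest log2 fold changes between the groups. They run 5′ to 3′ on the strand of the gene, and capitals mark TTTGAA and CCAAT on either strand, so that TTCAAA and ATTGG are the same letters read from the other strand:
Cdk1: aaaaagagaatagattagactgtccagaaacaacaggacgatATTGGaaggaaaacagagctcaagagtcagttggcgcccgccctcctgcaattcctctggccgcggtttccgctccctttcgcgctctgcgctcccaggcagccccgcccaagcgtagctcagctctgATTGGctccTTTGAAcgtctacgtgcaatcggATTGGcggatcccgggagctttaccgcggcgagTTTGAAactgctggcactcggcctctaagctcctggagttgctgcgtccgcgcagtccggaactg
Ccnb2: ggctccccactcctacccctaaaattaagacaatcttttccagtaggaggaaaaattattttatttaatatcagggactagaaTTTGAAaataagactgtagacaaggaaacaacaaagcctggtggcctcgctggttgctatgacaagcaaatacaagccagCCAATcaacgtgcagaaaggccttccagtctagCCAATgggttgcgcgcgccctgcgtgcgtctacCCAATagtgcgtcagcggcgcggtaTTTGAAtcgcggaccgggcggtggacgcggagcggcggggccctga
Ube2c: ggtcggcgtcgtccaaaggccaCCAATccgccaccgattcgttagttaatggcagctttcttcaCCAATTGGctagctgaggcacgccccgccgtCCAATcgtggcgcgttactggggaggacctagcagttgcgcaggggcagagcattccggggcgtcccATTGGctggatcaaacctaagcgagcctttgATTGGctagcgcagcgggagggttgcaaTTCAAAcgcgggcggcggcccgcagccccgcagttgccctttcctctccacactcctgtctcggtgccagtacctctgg
Cdca3: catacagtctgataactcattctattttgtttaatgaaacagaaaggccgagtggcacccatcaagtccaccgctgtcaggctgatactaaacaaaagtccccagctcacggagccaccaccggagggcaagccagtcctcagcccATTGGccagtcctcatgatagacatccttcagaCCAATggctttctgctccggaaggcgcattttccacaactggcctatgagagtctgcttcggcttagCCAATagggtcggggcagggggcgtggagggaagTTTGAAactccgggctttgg

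In Cdk1 the CHR letters began 71 and 15 bases before the start of the gene, with CCAAT letters 208, 80 and 48 bases before it. Ccnb2 had 3 CCAAT matches, beginning 87, 54 and 21 bases before the start, ahead of a CHR match 4 bases after it, and a further CHR match 167 bases before it. Ube2c had 6 CCAAT matches, of which the pair beginning 186 and 183 bases before the start overlapped on opposite strands, and a CHR match 29 bases before the start. In Cdca3 the CHR match lay 30 bases after the RefSeq start, behind CCAAT matches 104, 71 and 4 bases before it. That start lies 629 bases inside the gene as the expression table annotates it, so the Cdca3 window is not at the start given there.

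Searched on both strands, TTTGAA occurred in 27 of the 36 promoters (75%), compared with 14.2% of the promoters of 10688 other genes tested and 20.2% of 27025 genes in the promoter table. CCAAT also occurred in 27 of the 36 (75%), compared with 42.0% and 41.1%. Both sets of letters were present in 23 (63.9%), compared with 5.68% and 7.97%. A high CCAAT share was not particular to these 36 promoters. In further lists, described below, CCAAT occurred in 10 of 13 CDK inhibitors and brakes, 34 of 52 further mitosis genes and 17 of 27 G1 and S phase genes. The lowest share was 6 of 15 APC/C genes. TTTGAA occurred in 26 of 52 further mitosis genes and 6 of 13 cohesin and condensin genes. It occurred in 2 of 27 G1 and S phase genes and 1 of 13 CDK inhibitors and brakes. The E2F letters TTTCCCGC, TTTCGCGC, TTTGCCGC or TTTGGCGC were found in 2 of the 36 promoters, those of Cdk1 and Kif15 (5.56%), compared with 4.51% of the other genes tested, and in 37.0% of the promoters of a G1 and S phase list. CCAAT letters on opposite strands can overlap, as in Ube2c, and were counted separately. A gene was counted if any of its windows held a match. Ect2 and Prc1 had overlapping windows, so the same letters in these genes can enter the counts of matches once per window. Of the 38 CHR matches in the 38 windows, 28 lay within 50 bases of the start, with a median position 1.5 bases after it, whereas 41 of the 71 CCAAT matches lay from 150 to 30 bases before it. These shares are descriptions of letters in a fixed window and carry no test. The median log2 fold change between the groups was 0.95 for the 27 genes with CHR letters and 0.96 for the 9 without.

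**Figure D1:**
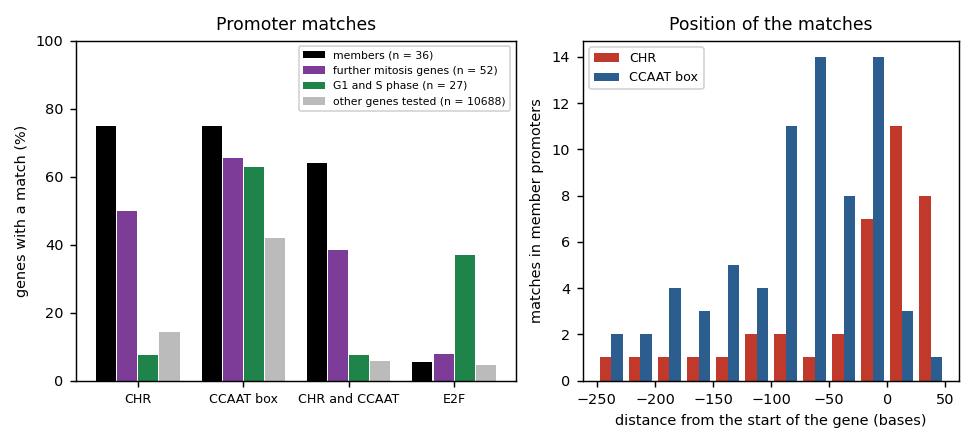
Left, the share of genes (%) with letters of the CHR, the CCAAT box, both, or an E2F site in the promoter window, for the mitosis and G2/M genes (members, n = 36), further mitosis genes (n = 52), G1 and S phase genes (n = 27) and all other genes tested (n = 10688). Right, the number of matches in the 38 windows of the 36 genes against the distance of the match's centre from the RefSeq start in bases. The CHR letters were present in 75% of the mitosis and G2/M promoters and 14.2% of the others, and they clustered around the start, with CCAAT letters ahead of it.

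The 10 libraries held 16103423 to 20318525 fragments on genes, as recovered from the FPKM values, which makes 1 fragment on a transcript of 1 kilobase worth 0.0482 to 0.0580 FPKM. As in lung, surfactant and airway transcripts were abundant, such as Sftpc at a mean of 10428 FPKM after fistula surgery and 12095 FPKM after sham surgery. The sex-linked genes separated the lungs in a way that nearly followed surgery. Xist, the RNA that silences an X chromosome in female cells, stood at 52.4 to 66.5 FPKM in IncPBF lungs 2 to 5, at 0.0144 FPKM in IncPBF lung 1 and in the sham lungs at no more than 0.0770 FPKM. Ddx3y, on the Y chromosome, was at 18.6 FPKM in IncPBF lung 1, at no more than 0.00926 FPKM in IncPBF lungs 2 to 5 and at 21.8 to 24.6 FPKM in the sham lungs. Results for the 45 genes are therefore also given with the log2 Xist level as a covariate and for IncPBF lung 1 alone against the sham lungs. Kif4 is the only X-linked gene of the 45, and none is Y-linked.

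All 45 mitosis and G2/M genes were significantly upregulated after fistula surgery, with adjusted p from 7.10e-05 to 0.0269 (limma, Benjamini-Hochberg over the 15388 genes). By comparison, 16.1% of all genes tested were called higher and 16.2% lower at the same threshold of 0.05. The 45 genes were chosen with earlier results of these data known, so such comparisons with all genes are descriptions and carry no test. None of the 45 was called lower, and 0 had an unadjusted p under 0.05 in that direction with limma or, as an alternative, limma-voom on recovered fragments. The ratio of the group means ran from 1.5 for Bub1b to 2.83 for Cdc25c, with a median of 1.95, and 18 genes reached at least 2-fold. On the log2(FPKM + 0.1) scale the changes lay between 0.57 and 1.34, the median being 0.96, and the standard errors (SE) were 0.0769 to 0.222, while the median over all genes tested was 0.01. The adjusted p was under 0.01 in 43 genes and under 0.001 in 27.

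In 44 of the 45 genes the lowest IncPBF lung exceeded the highest sham lung, a separation seen in 12.0% of all genes tested. The exact 2-sided permutation test over all assignments of the lungs to the groups gave p = 0.00794 for each of these 44, the smallest value it can give. Cenpe, a kinetochore motor, was the exception, since its lowest IncPBF lung was at 0.963 times its highest sham lung. In the other genes this ratio reached 1.86, and it was at least 1.5 in 10 genes. The levels themselves were low to moderate. Means over the 10 lungs ran from 0.880 FPKM for Dlgap5 to 11.6 FPKM for Cdc20, with a median of 3.42 FPKM, compared with 5.60 FPKM over all genes tested. Behind each value stood 16 to 2200 fragments, and 29 genes had at least 100 fragments in every lung. In whole lung, more cells in the cycle and more of these RNAs per cycling cell cannot be told apart.

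**Figure D2:**
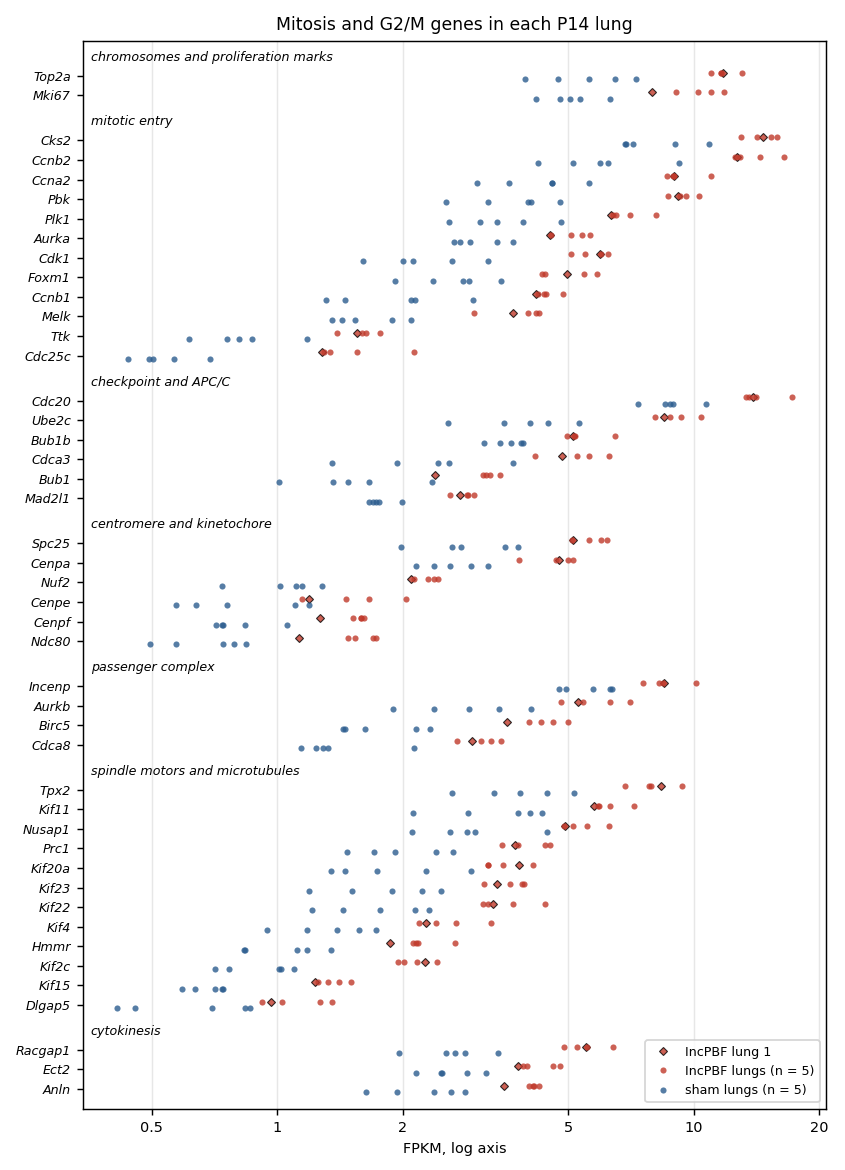
FPKM on a log axis for each of the 45 genes, grouped by role, with a point for each IncPBF lung (red, n = 5; IncPBF lung 1 as a diamond) and each sham lung (blue, n = 5). In 44 genes every red point lies to the right of every blue point, and in Cenpe the groups overlap.

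Mki67, which encodes the chromosome-coating protein Ki-67 used to mark cycling cells, lies at chr7:135689784-135716361 (coordinates as in the table, build GRCm38). Mki67 stood at 7.95, 10.2, 11.8, 11.0 and 9.05 FPKM in IncPBF lungs 1 to 5 and at 4.77, 4.17, 6.29, 5.34 and 5.06 FPKM in sham lungs 1 to 5. The lowest IncPBF lung, lung 1, was still above the highest sham lung, lung 3. The mean went from 5.13 ± 0.780 FPKM (sham) to 10.01 ± 1.54 FPKM (IncPBF; SD, n = 5 each), a log2 fold change of 0.95 (SE 0.124, adjusted p = 0.000265, limma). Top2a, the topoisomerase that untangles sister chromatids, lies at chr11:98992943-99024189. The level of Top2a was 11.7, 11.6, 13.0, 11.0 and 11.6 FPKM in IncPBF lungs 1 to 5, compared with 6.46, 3.93, 7.27, 5.61 and 4.72 FPKM in sham lungs 1 to 5. The IncPBF lungs were close together, and the sham lungs varied more widely, from lung 2 to lung 3. On average Top2a was at 11.8 ± 0.739 FPKM after fistula surgery and 5.60 ± 1.33 FPKM after sham surgery (SD, n = 5 each), with a log2 fold change of 1.09 (SE 0.141, adjusted p = 0.000250, limma).

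The 12 genes of mitotic entry were all upregulated, by 1.64-fold to 2.83-fold, with a median log2 fold change of 1.15, the highest of the role groups. In IncPBF lungs 1 to 5 Cdk1 was measured at 5.95, 5.08, 6.21, 6.00 and 5.48 FPKM, and in sham lungs 1 to 5 at 2.12, 1.60, 3.21, 2.63 and 2.00 FPKM. Cdk1, the kinase that triggers mitosis (chr10:69335146-69352938), thus rose 2.48-fold, with no overlap between the groups. Group means of Cdk1 were 5.74 ± 0.457 and 2.31 ± 0.620 FPKM (IncPBF and sham, SD, n = 5 each), and the log2 fold change was 1.31 (SE 0.153, adjusted p = 0.000133, limma). Its cyclin partner Ccnb1 (chr13:100778650-100786570) moved similarly. Ccnb1 stood at 4.17, 4.43, 4.84, 4.37 and 4.23 FPKM in IncPBF lungs 1 to 5 and at 2.10, 1.31, 2.95, 2.15 and 1.46 FPKM in sham lungs 1 to 5. The IncPBF lungs spanned a narrow range, and sham lung 3 came nearest to them. The mean went from 1.99 ± 0.652 FPKM (sham) to 4.41 ± 0.263 FPKM (IncPBF; SD, n = 5 each), a log2 fold change of 1.16 (SE 0.180, adjusted p = 0.000795, limma). Ccnb2, a related cyclin, rose from 6.15 ± 1.87 to 13.8 ± 1.66 FPKM, and Ccna2, the cyclin of S phase and G2, rose from 4.27 ± 0.997 to 9.30 ± 0.961 FPKM.

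Pbk, a mitotic kinase at chr14:65805837-65817822, showed the highest log2 fold change of the 45 genes. The level of Pbk was 9.16, 9.56, 10.3, 9.25 and 8.66 FPKM in IncPBF lungs 1 to 5, compared with 3.20, 2.55, 4.78, 4.06 and 4.01 FPKM in sham lungs 1 to 5. Its lowest IncPBF lung was far above its highest sham lung. On average Pbk was at 9.39 ± 0.608 FPKM after fistula surgery and 3.72 ± 0.859 FPKM after sham surgery (SD, n = 5 each), with a log2 fold change of 1.34 (SE 0.140, adjusted p = 7.10e-05, limma). Cdc25c, the phosphatase that removes the inhibitory phosphates from CDK1, had the highest ratio of means but low counts. It rose from 0.538 ± 0.0960 to 1.52 ± 0.361 FPKM, with as few as 16 fragments in a lung. Cks2, the small CDK-binding protein at chr13:51645232-51650660, was the most abundant gene of mitotic entry. In IncPBF lungs 1 to 5 Cks2 was measured at 14.7, 14.2, 15.3, 15.8 and 12.9 FPKM, and in sham lungs 1 to 5 at 6.84, 7.13, 10.9, 9.0 and 6.89 FPKM. Sham lung 3 was the highest of its group, and the groups did not overlap. Group means of Cks2 were 14.6 ± 1.11 and 8.15 ± 1.78 FPKM (IncPBF and sham, SD, n = 5 each), and the log2 fold change was 0.85 (SE 0.124, adjusted p = 0.000548, limma).

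Foxm1, the forkhead transcription factor of G2/M genes, lies at chr6:128362967-128376146. Foxm1 stood at 4.97, 4.40, 5.85, 5.44 and 4.32 FPKM in IncPBF lungs 1 to 5 and at 2.36, 1.92, 3.45, 2.88 and 2.79 FPKM in sham lungs 1 to 5. All IncPBF lungs were again above the sham lungs, by a smaller margin than for Cdk1. The mean went from 2.68 ± 0.577 FPKM (sham) to 5.00 ± 0.661 FPKM (IncPBF; SD, n = 5 each), a log2 fold change of 0.89 (SE 0.145, adjusted p = 0.00104, limma). The kinases Plk1 (Polo-like kinase), Aurka (centrosomal Aurora kinase), Ttk (the checkpoint kinase Mps1) and Melk were upregulated by 1.94-fold, 1.64-fold, 1.88-fold and 2.30-fold, with adjusted p from 0.000134 to 0.00192 (limma).

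Among the 6 genes of the spindle checkpoint and the APC/C the median log2 fold change was 0.83. Cdc20, the APC/C activator that the checkpoint inhibits, lies at chr4:118432901-118437352 and had the highest mean level of the 45 genes. The level of Cdc20 was 13.9, 14.1, 17.2, 13.3 and 13.5 FPKM in IncPBF lungs 1 to 5, compared with 8.89, 7.36, 10.7, 8.54 and 8.76 FPKM in sham lungs 1 to 5. IncPBF lung 3 stood above the other lungs, and IncPBF lungs 1, 2, 4 and 5 were nearly level. On average Cdc20 was at 14.4 ± 1.61 FPKM after fistula surgery and 8.85 ± 1.21 FPKM after sham surgery (SD, n = 5 each), with a log2 fold change of 0.70 (SE 0.0994, adjusted p = 0.000461, limma). Ube2c, the ubiquitin-conjugating enzyme of the APC/C, whose promoter held both CHR and CCAAT letters, showed the largest change of this role. In IncPBF lungs 1 to 5 Ube2c was measured at 8.47, 8.09, 10.4, 8.76 and 9.34 FPKM, and in sham lungs 1 to 5 at 4.48, 2.57, 5.31, 3.5 and 4.04 FPKM. Sham lung 2 was the lowest, and no sham lung reached an IncPBF lung. Group means of Ube2c were 9.01 ± 0.904 and 3.98 ± 1.03 FPKM (IncPBF and sham, SD, n = 5 each), and the log2 fold change was 1.19 (SE 0.160, adjusted p = 0.000322, limma). The checkpoint genes Bub1 (1.95-fold), Mad2l1 (1.59-fold) and Bub1b (1.5-fold) rose less than Ube2c in the ratio of means, a difference between genes that was not tested. Cdca3, a trigger of mitotic entry through Wee1 degradation, was upregulated by 2.18-fold (adjusted p = 0.00238, limma).

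The 6 centromere and kinetochore genes had a median log2 fold change of 0.88. Spc25 and Nuf2 encode subunits of the NDC80 complex, the microtubule attachment site of the kinetochore, and lie at chr2:69193895-69206194 and chr1:169497934-169531464. Spc25 stood at 5.13, 5.98, 5.60, 6.20 and 5.11 FPKM in IncPBF lungs 1 to 5 and at 2.76, 1.98, 3.52, 3.79 and 2.63 FPKM in sham lungs 1 to 5. The lowest IncPBF lungs, 1 and 5, were well clear of the highest sham lung, lung 4. The mean went from 2.94 ± 0.725 FPKM (sham) to 5.60 ± 0.492 FPKM (IncPBF; SD, n = 5 each), a log2 fold change of 0.94 (SE 0.151, adjusted p = 0.000978, limma). The level of Nuf2 was 2.10, 2.37, 2.30, 2.13 and 2.44 FPKM in IncPBF lungs 1 to 5, compared with 1.11, 0.737, 1.28, 1.15 and 1.01 FPKM in sham lungs 1 to 5. Here too the groups did not overlap, and sham lung 2 was the lowest. On average Nuf2 was at 2.27 ± 0.150 FPKM after fistula surgery and 1.06 ± 0.203 FPKM after sham surgery (SD, n = 5 each), with a log2 fold change of 1.05 (SE 0.134, adjusted p = 0.000228, limma). Ndc80 itself rose from 0.688 ± 0.148 to 1.51 ± 0.238 FPKM. Cenpa, the histone H3 variant that marks centromeres, rose from 2.65 ± 0.418 to 4.67 ± 0.515 FPKM, and Cenpf, a large kinetochore protein, rose from 0.816 ± 0.141 to 1.52 ± 0.143 FPKM. Cenpe rose from 0.853 ± 0.278 to 1.5 ± 0.365 FPKM. It had the second weakest adjusted p of the 45 genes, 0.0218 (limma), and an exact permutation p of 0.0159.

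All 4 genes of the chromosomal passenger complex were upregulated, with a median log2 fold change of 1.04. Birc5 (survivin), at chr11:117849251-117855743, showed the largest change of the complex. In IncPBF lungs 1 to 5 Birc5 was measured at 3.56, 4.03, 4.98, 4.60 and 4.30 FPKM, and in sham lungs 1 to 5 at 1.44, 1.62, 2.16, 2.32 and 1.45 FPKM. The groups were well apart, with IncPBF lung 1 the lowest of its group. Group means of Birc5 were 4.29 ± 0.542 and 1.80 ± 0.412 FPKM (IncPBF and sham, SD, n = 5 each), and the log2 fold change was 1.23 (SE 0.145, adjusted p = 0.000143, limma). Incenp, the scaffold of the complex at chr19:9872297-9899533, had its highest level and its smallest change. Incenp stood at 8.47, 8.24, 10.1, 8.43 and 7.55 FPKM in IncPBF lungs 1 to 5 and at 5.72, 4.74, 6.37, 6.29 and 4.93 FPKM in sham lungs 1 to 5. All IncPBF lungs exceeded the sham lungs without overlap. The mean went from 5.61 ± 0.757 FPKM (sham) to 8.56 ± 0.944 FPKM (IncPBF; SD, n = 5 each), a log2 fold change of 0.61 (SE 0.102, adjusted p = 0.00126, limma). The kinase Aurkb (1.97-fold, adjusted p = 0.00225) and the subunit Cdca8, known as borealin (2.16-fold, adjusted p = 0.000375), lay between them (limma).

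The 12 spindle motors and microtubule factors had a median log2 fold change of 0.92. Tpx2, the spindle assembly factor that activates Aurora A, lies at chr2:152847964-152895321 and was the most abundant of them. The level of Tpx2 was 8.33, 7.81, 9.34, 6.84 and 7.88 FPKM in IncPBF lungs 1 to 5, compared with 3.82, 2.62, 5.17, 4.44 and 3.32 FPKM in sham lungs 1 to 5. IncPBF lung 4 was the lowest of its group, above sham lung 3. On average Tpx2 was at 8.04 ± 0.907 FPKM after fistula surgery and 3.87 ± 0.985 FPKM after sham surgery (SD, n = 5 each), with a log2 fold change of 1.06 (SE 0.158, adjusted p = 0.000602, limma). Kif2c, the microtubule-depolymerising kinesin MCAK at chr4:117159639-117182639, changed the most of this role. In IncPBF lungs 1 to 5 Kif2c was measured at 2.26, 2.02, 2.42, 2.17 and 1.95 FPKM, and in sham lungs 1 to 5 at 1.10, 0.766, 1.01, 1.02 and 0.711 FPKM. The levels were low, at 54 to 195 fragments per lung, with no overlap. Group means of Kif2c were 2.16 ± 0.188 and 0.921 ± 0.171 FPKM (IncPBF and sham, SD, n = 5 each), and the log2 fold change was 1.16 (SE 0.133, adjusted p = 0.000117, limma). The other kinesins rose by 1.81-fold (Kif11, which pushes the spindle poles apart), 1.83-fold (Kif20a), 1.93-fold (Kif23), 1.97-fold (Kif15), 1.99-fold (Kif22) and 1.88-fold (Kif4, which is X-linked). The microtubule-binding factors Nusap1, Hmmr and Prc1 rose by 1.78-fold, 2.07-fold and 1.96-fold. Dlgap5 (HURP), a spindle microtubule-bundling protein, had the weakest adjusted p of the 45 (0.0269, limma). It rose from 0.652 ± 0.209 to 1.11 ± 0.193 FPKM, and its call was lost when IncPBF lung 2, IncPBF lung 3, sham lung 2 or sham lung 5 was left out. The call of Cenpe was lost without IncPBF lung 2, IncPBF lung 3 or sham lung 1. Leaving out any 1 lung kept at least 43 of the 45 genes called.

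The 3 genes of cytokinesis had a median log2 fold change of 0.81. Racgap1, the GTPase-activating subunit of centralspindlin at chr15:99620496-99651656, was the most abundant of them and changed the most. Racgap1 stood at 5.52, 5.23, 6.41, 4.89 and 5.53 FPKM in IncPBF lungs 1 to 5 and at 2.82, 1.96, 3.38, 2.54 and 2.68 FPKM in sham lungs 1 to 5. The IncPBF lungs were close together and the groups did not overlap. The mean went from 2.68 ± 0.512 FPKM (sham) to 5.52 ± 0.564 FPKM (IncPBF; SD, n = 5 each), a log2 fold change of 1.03 (SE 0.126, adjusted p = 0.000176, limma). Ect2, the RhoA exchange factor that centralspindlin recruits, rose from 2.63 ± 0.396 to 4.21 ± 0.444 FPKM, and Anln (anillin), the scaffold of the contractile ring, rose from 2.28 ± 0.486 to 4.01 ± 0.292 FPKM.

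**Figure D3:**
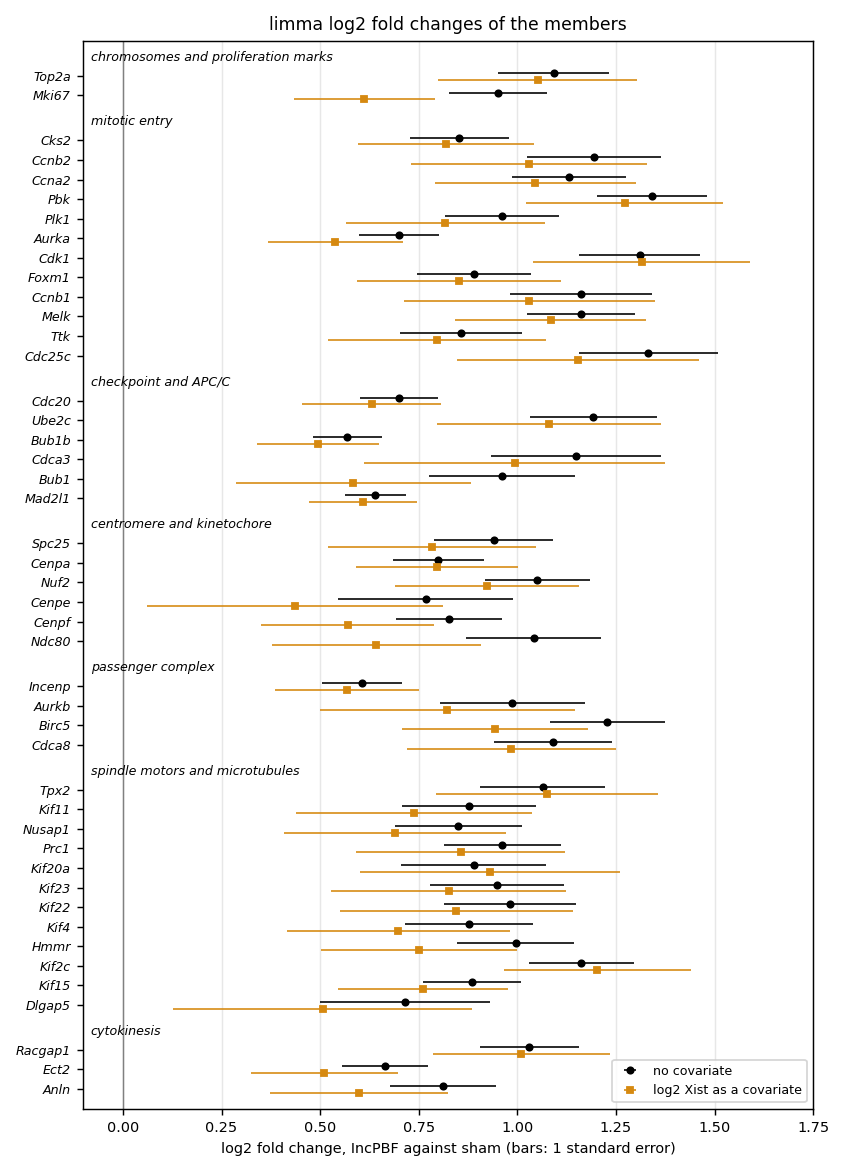
Log2 fold change of each of the 45 genes, IncPBF against sham, on the log2(FPKM + 0.1) scale, with bars of 1 standard error, from limma without a covariate (black circles) and with log2 Xist as a covariate (orange squares). All estimates are above 0, and those with the covariate have a median of 0.82 against 0.96 and wider bars.

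With log2 Xist as a covariate, all 45 estimates stayed positive, from 0.44 for Cenpe to 1.31 for Cdk1 with a median of 0.82, but only 8 genes were called (2.13% of all genes tested were called higher in that fit). The 8 genes were Pbk, Cdk1, Kif2c, Melk, Racgap1, Mad2l1, Top2a and Ccna2, and adjusted p over the 45 genes ran from 0.0214 to 0.554 (limma). At an unadjusted p under 0.05, 42 of the 45 genes were higher, compared with 10.1% of all genes tested, and Bub1, Cenpe and Dlgap5 were not. The median SE rose from 0.149 to 0.259, since this fit compares mainly IncPBF lung 1 with the sham lungs. IncPBF lung 1 had Xist and Y-linked levels like those of the sham lungs. It exceeded every sham lung in 45 of the 45 genes, compared with 26.4% of all genes tested. This was 1 lung, and the 45 genes tended to move together between lungs. The genes counted here and above are therefore not independent observations. The margin of IncPBF lung 1 over the highest sham lung was small in Cenpe (0.00461 FPKM) and Bub1 (0.0329 FPKM). Its log2 ratio to the sham mean ran from 0.44 to 1.33 with a median of 0.82. Apart from this lung, sex-linked expression and surgery cannot be told apart.

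The lungs also differed within the groups. IncPBF lung 3 was the highest of the 10 lungs in 38 of the 45 genes, and sham lung 3 was the highest sham lung in 36. Sham lung 2 was the lowest of the 10 lungs in 35 genes. Averaged over the 45 genes on the log2(FPKM + 0.1) scale and relative to the sham mean, IncPBF lungs 1 to 5 were at 0.86, 0.92, 1.14, 0.96 and 0.91, and sham lungs 1 to 5 were at 0.04, -0.36, 0.36, 0.10 and -0.14. The highest sham lung thus remained under the lowest IncPBF lung. The lungs share a number only, and IncPBF lung 3 and sham lung 3 are not known to be related.

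**Figure D4:**
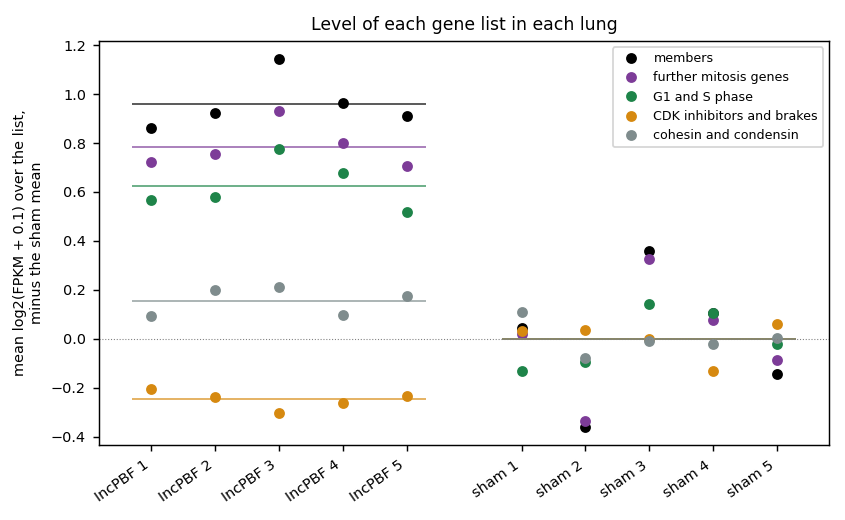
Mean log2(FPKM + 0.1) over each gene list in each lung, minus the mean of the sham lungs, for the 45 mitosis and G2/M genes and for further lists of the cell cycle (points, 1 per lung; lines, group means). The 45 genes were at 0.86 to 1.14 in the IncPBF lungs and at -0.36 to 0.36 in the sham lungs, and the CDK inhibitors and brakes were the only one of these lists lower in every IncPBF lung than in every sham lung.

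Genes of neighbouring cell cycle functions were listed by function for comparison. Their limma values are given only from the fit without log2 Xist as a covariate, so sex-linked expression and surgery are not separated in them. Over all genes tested, 16.1% were called higher and 16.2% lower. Of 60 tested genes in a further list of mitosis genes, 53 were called higher and 0 lower, with a median log2 fold change of 0.89. They included Neil3 (1.20), a DNA glycosylase of replicating cells, Cep55 (1.20), which acts in abscission, and Sapcd2 (1.19), a spindle orientation factor. Of the 7 genes not called, Pttg1 (securin), named after its values were seen, had the lowest log2 fold change, -0.22, with an unadjusted p of 0.0292 and an adjusted p of 0.0780 (limma).

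The G1 and S phase list showed a smaller change, with 33 of 35 genes called higher, 0 lower and a median log2 fold change of 0.65. Rrm2, a subunit of ribonucleotide reductase, rose from 5.82 ± 1.59 to 12.1 ± 1.81 FPKM, Gins2 of the replicative helicase rose from 0.779 ± 0.129 to 1.69 ± 0.148 FPKM, and Uhrf1, which maintains DNA methylation, rose from 3.43 ± 0.542 to 7.10 ± 0.849 FPKM. Ccnd2, a cyclin of G1, was at 28.4 to 32.3 FPKM after fistula surgery against 19 to 20.4 FPKM after sham surgery, a log2 fold change of 0.63 (adjusted p = 1.32e-05, limma). Its relative Ccnd1 rose by a log2 fold change of 0.19 (adjusted p = 0.0204, limma). Ccnd3 and Cdk6, named after their values were seen because they were the 2 genes not called, had log2 fold changes of -0.06 and -0.08.

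In the partner complexes that act in mitosis but are also expressed outside it, some genes were called higher. Those called lower made up, in each list, a smaller share than the 16.2% of all genes tested. Of 16 tested APC/C subunits and regulators, 5 were called higher and 1 lower, with a median log2 fold change of 0.12. Fbxo5 (Emi1), an inhibitor of the APC/C, rose by 0.61, Anapc10 by 0.43, Cdc16 by 0.27 and, named after their values were seen, Anapc7 by 0.20 and Cdc27 by 0.19, while Anapc16, also named afterwards, fell by 0.22 on the log2 scale. Of 17 cohesin and condensin genes, 5 were called higher and 2 lower, with a median of 0.01. The 5 were all condensin subunits, Ncapg (1.02), Smc2 (0.63), Ncaph (0.60) and, named after their values were seen, Ncapd2 (0.60) and Ncapg2 (0.55). The 2 lower genes, also named afterwards, were the cohesin loader Nipbl (-0.39) and the cohesin subunit Stag2 (-0.25).

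A further list held genes of the MuvB (DREAM) complex, the E2F factors, the pocket proteins and NF-Y, together with Myb, Mybl1 and Trp53. Of its 25 genes, 10 were called higher and 4 lower, with a median log2 fold change of 0.20. The share called lower was close to the 16.2% of all genes tested. The repressor E2f8 rose by 1.10 and the activator E2f3 by 0.62, whereas Tfdp2, a dimerisation partner of E2F proteins, fell by 0.62. Mybl2, which encodes B-MYB, rose from 1.31 ± 0.363 to 2.00 ± 0.254 FPKM (adjusted p = 0.0203, limma), although its groups overlapped (exact permutation p = 0.0238). E2f1 rose by 0.52 and Trp53, the tumour suppressor p53, by 0.34 (adjusted p = 0.00120 and 0.0221, limma). The other genes called lower, named after their values were seen, were the pocket proteins Rb1 (-0.43) and Rbl2 (-0.35) and E2f2 (-0.33).

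The CDK inhibitors and mitotic brakes moved the other way, with 9 of 15 tested genes called lower, 2 higher and a median log2 fold change of -0.28. The share called higher was under the 16.1% of all genes tested. The level of Cdkn1a was 14.4, 14, 11.9, 14.1 and 12.5 FPKM in IncPBF lungs 1 to 5, compared with 28.9, 25.3, 24.1, 18 and 36.2 FPKM in sham lungs 1 to 5. Cdkn1a encodes p21, the CDK inhibitor induced by p53, and its highest IncPBF lung was below its lowest sham lung. On average Cdkn1a was at 13.4 ± 1.11 FPKM after fistula surgery and 26.5 ± 6.72 FPKM after sham surgery (SD, n = 5 each), with a log2 fold change of -0.95 (SE 0.151, adjusted p = 0.000927, limma). Gadd45b, a growth arrest gene, was at 27.2 to 37.7 FPKM after fistula surgery against 53.2 to 70.1 FPKM after sham surgery (adjusted p = 0.000164, limma). Cdkn1c (p57) fell by 0.64 and Cdkn1b (p27) by 0.27 on the log2 scale, each without overlap between the groups. Cdkn2c (p18), an inhibitor of the CDK4 and CDK6 kinases, went against most of the list. In IncPBF lungs 1 to 5 Cdkn2c was measured at 33.5, 32.8, 29.3, 35 and 30.4 FPKM, and in sham lungs 1 to 5 at 14.7, 17.3, 18.8, 15.7 and 15.2 FPKM. Its IncPBF lungs were all far above its sham lungs. Group means of Cdkn2c were 32.2 ± 2.33 and 16.4 ± 1.70 FPKM (IncPBF and sham, SD, n = 5 each), and the log2 fold change was 0.98 (SE 0.0766, adjusted p = 1.47e-05, limma). The anti-proliferative gene Btg1, named after its values were seen, was the other gene called higher, with a log2 fold change of 0.24.

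**Figure D5:**
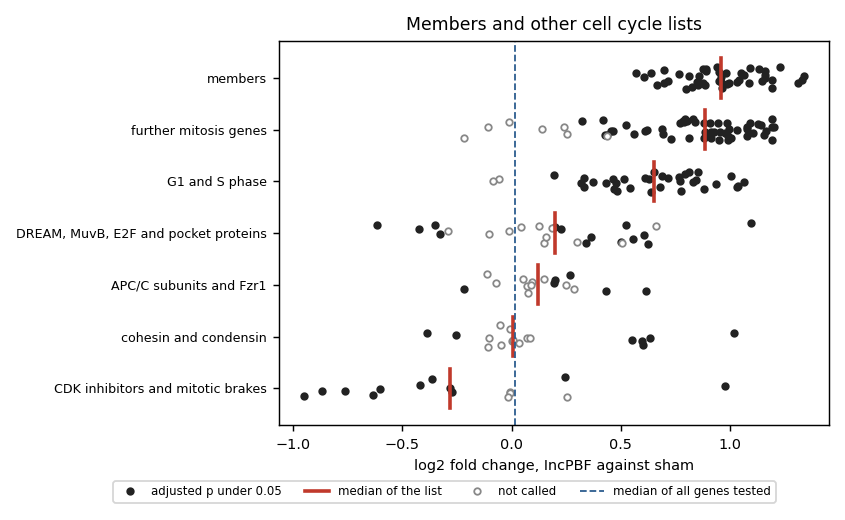
Log2 fold changes, IncPBF against sham, for the tested genes of each cell cycle list, with filled points for adjusted p under 0.05 (limma), open points for genes not called, red bars for list medians and a dashed line for the median of all genes tested (0.01). The medians run from 0.96 for the 45 mitosis and G2/M genes and 0.89 for further mitosis genes to -0.28 for CDK inhibitors and brakes.

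Markers of the lung's cell types moved with the groups as well, where 16.1% of all genes tested were called higher and 16.2% lower. Marker counts here and below are also from the fit without log2 Xist as a covariate. The summed level of the 45 genes was 226 to 272 FPKM after fistula surgery against 92.9 to 158 FPKM after sham surgery. Of 6 smooth muscle and myofibroblast markers, 4 were called higher and 0 lower, and their summed level was 313 to 608 FPKM after fistula surgery against 112 to 246 FPKM after sham surgery. All 6 alveolar type 1 markers were called lower, at a summed 1145 to 1219 FPKM against 1430 to 1880 FPKM. Of 6 markers each, 4 were called lower for alveolar type 2 cells, at a summed 11923 to 14566 FPKM against 15144 to 18662 FPKM, and 4 for endothelial cells, at 976 to 1039 FPKM against 1014 to 1318 FPKM. Among 6 fibroblast markers 2 were called higher and 1, Pdgfra (-1.36), lower, at a summed 562 to 690 FPKM against 499 to 628 FPKM. None of these lists had a marker at 0 in every lung. The part of these shifts in the change of the mitosis genes was not tested.

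Red cells and their rapidly dividing precursors were represented by 8 markers, among them the globin genes Hba-a1 and Hbb-bs. Of the 8 markers, 4 were tested, with 3 called lower and 0 higher, and the rest had a mean under 0.5 FPKM. The summed level of all 8 was 318, 1778, 530, 229 and 1322 FPKM in IncPBF lungs 1 to 5, compared with 1377 to 2208 FPKM in the sham lungs. This sum does not separate dividing precursors from other red cells. The mean level of the 45 mitosis genes, relative to the sham mean, was 0.86, 0.92, 1.14, 0.96 and 0.91 in IncPBF lungs 1 to 5. The part of the erythroid shift in the change of the mitosis genes was not tested. No tested marker of macrophages, neutrophils, T and NK cells, B cells or ciliated cells was called in either direction. All 6 markers were tested in each of these lists except those of neutrophils (3 tested) and B cells (5 tested). The summed macrophage level, for example, was 36.9 to 53.4 FPKM after fistula surgery against 40.7 to 59.1 FPKM after sham surgery.

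In the GENCODE M21 annotation of build GRCm38, 42 of the 45 genes had positions identical to those in the table. By the positions in the expression table, 22 of the 45 overlapped another gene. Whether reads were assigned by strand is not given in the sources used here, so the values of genes with an expressed partner are less certain. The partners with the most fragments were Elovl1 for Cdc20 (a median of 2772 against 403 for Cdc20) and Cdc23 for Kif20a (1134 against 218). Ccna2, Cdca8, Prc1 and Kif4 overlapped Exosc9, 9930104L06Rik, Rccd1 and Pdzd11, with medians of 138 to 422 fragments for the partner. Pseudogene copies were looked up only by the name of the gene with the ending -ps, so copies under other names were not searched. Those found had at most 120 fragments in a lung for Ccnb2-ps, 11 for Ccnb1-ps and 0 for Kif22-ps and Kif4-ps. Ccnb2 itself had 122 to 466 fragments per lung. The 45 genes lay on 17 chromosomes, with no more than 7 on any of them.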

How the data were processed

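RNA was sequenced from 10 whole P14 lungs, 5 per group. The authors used NEBNext libraries and deposited a gene table in FPKM, with gene lengths (in the text, means from sham to IncPBF are given ± SD, n = 5 each). The labels give Trizol for RNA isolation, whereas the methods give a column kit. The submitters' processing notes name Bowtie 0.12.2 and the builds GRCm38, mm10 and hg38 without roles, and the program that counted fragments is not given in the sources used here. The IncPBF columns bear another abbreviation than the sample titles, so they were assigned to the group, and IncPBF lung numbers are those of the columns.

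In each library the product of FPKM and gene length moved in whole steps (100.0% of values up to 2000 fragments, within 0.02 steps), which gave fragments per gene. No pair of libraries was identical within counting noise (smallest chi-square per gene 6.40, IncPBF lungs 2 and 5). Genes with a mean of at least 0.5 FPKM were tested with limma 3.58.1 (R 4.3.3; lmFit and eBayes with a trend) on log2(FPKM + 0.1), a scale that understates the changes of low genes, with Benjamini-Hochberg adjustment and a threshold of 0.05. Single genes also had an exact 2-sided permutation test. The fit was tested on simulated data. Tables, promoter searches and plots used Python 3.11.15, pandas 2.3.3, numpy 2.4.6 and matplotlib 3.10.9.

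The 45 genes and the other gene lists were chosen with earlier results of these data known. Values in every lung are given for Mki67, Top2a, Ccnb1, Cdk1 and Foxm1, for the most abundant and the most changed gene of each role, and, chosen after their values were seen, for Cdkn1a and Cdkn2c. From other lists, up to 3 called genes with the largest changes are named, with Mybl2, E2f1, Trp53, Ccnd1, Ccnd2, Cdkn1a, Cdkn1b and Cdkn1c. Alternatives covered the pseudocount, the filter, scaling, limma-voom on fragments, log2 Xist as a covariate, the lung numbers as a block, and leaving out each lung.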

Additional observations from a re-analysis of the deposited data

Results flagged for a closer look

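In 5 of 92 groups of 5 lungs examined (the 45 genes and the mean over them, in each group), the highest or lowest lung lay apart from the others by a share of the group's range above 0.71, Dixon's 95% critical value. Chance flags about 1 in 20 groups. IncPBF lung 3 was the high lung for Bub1b (6.48 FPKM, share 0.854), Ccna2 (11.0 FPKM, share 0.852) and Cdc20 (17.2 FPKM, share 0.804). Sham lung 3 was the high lung for Cdca8 (2.13 FPKM, share 0.817), and IncPBF lung 1 was the low lung for Cenpf (1.27 FPKM, share 0.744).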

How the results depend on the processing

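Of 336 values for the 16 genes shown in every lung, 325 stayed on their side of the threshold, 11 lost the call, all with log2 Xist as a covariate, and 0 reversed. None of the 45 genes had a negative estimate in any of the 21 settings. The number of genes called higher fell from 45 to 8 with log2 Xist as a covariate, where 42 had an unadjusted p under 0.05. The median log2 fold change was 0.71 with a pseudocount of 1. Without a filter on low values, Dlgap5 lost its call (44 of 45). Leaving out 1 lung at a time gave 43 to 45 genes called and medians of 0.85 to 1.04. The lung numbers did not pair the lungs: deviations of same-numbered lungs correlated at -0.07 to 0.09. A fit with the replicate block called 45 genes, with adjusted p up to 0.0482 (limma), and changed no call. Depth limits the low genes most, such as Cdc25c with 16 fragments in a lung.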
